A study of Mus musculus with 11 samples.

Results

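Pancreas of mice that had been exposed to a low protein diet before birth and to a β-cell toxin after birth was compared with pancreas of mice that had received the toxin alone. Streptozotocin (STZ) is a glucose-linked alkylating agent that enters β cells through the glucose transporter GLUT2 and kills them. The arrays labelled as low protein diet with STZ (n = 3) were set against those labelled as control diet with STZ (n = 2), which together are 5 of the 11 arrays of the series. All 5 animals were female Balb/C offspring aged 30 days, and all had been injected with 35 mg/kg of STZ on each of days 1 to 5 of life. Their mothers ate 8% protein in the low protein group and 20% protein in the control group while pregnant, in diets of equal energy, and both groups of mothers ate the control diet from birth onwards. The only labelled difference between these groups is therefore the maternal diet before birth, and the STZ injury is shared. The other 6 arrays are from vehicle-injected (sham) offspring of the same diets, 3 each, and were used to set the diet difference after STZ beside the diet difference without it. Control STZ arrays carry the replicate numbers 1 and 3, and a replicate 2 was not analysed here. The labels used here do not name dams or litters, so litter and diet cannot be told apart.

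The pancreas is mostly exocrine tissue. Acinar cells make and store digestive enzymes, ducts carry them to the gut, and the islets, a small share of the organ, release insulin from β cells, glucagon from α cells and somatostatin from δ cells. Acinar cells have a very dense endoplasmic reticulum (ER), many ribosomes and a high demand for amino acids, and protein supply acts on all of these. Offspring of rodents fed little protein in pregnancy are known for small islets, fewer dividing and more dying islet cells and a reduced islet blood supply. The question of the comparison is whether that history changes the pancreas that remains after β-cell injury. In whole pancreas, fewer cells of a type and less RNA per cell cannot be told apart.

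Values are log2 signals of Affymetrix probe sets, as deposited, and a difference is the low protein STZ mean minus the control STZ mean with the standard error (SE) of a linear model over all 11 arrays. The number of arrays limits the precision, and 3 against 2 arrays cannot give a one-sided p below 0.1 by exact permutation, since 10 arrangements exist. Defining markers of the exocrine and endocrine pancreas were present on all 5 arrays, Cpa1 (carboxypeptidase A1) at 15.02 to 15.70 and Gcg (glucagon) at 12.85 to 13.36. Slc2a2, which encodes GLUT2, was at 5.85 to 6.09 on all 5, under the limit of 6.866 below which genes were not tested. Arrays of the same group correlated at 0.9685 to 0.987 (Pearson's r over the genes tested, 4 pairs) and arrays of different STZ groups at 0.9674 to 0.9869 (6 pairs). Low protein STZ 1 lay at one end of the first principal component of all 11 arrays (28.56, 38.4% of the variance), and the other 4 STZ arrays lay between -9.74 and 13.21. A probe set for the 5′ end of 18S rRNA read 11.11 in control STZ 1 and 6.19 to 7.22 in the other 4 arrays.

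Signal strength itself differed with the diet. Hybridisation controls, which are foreign transcripts spiked into each sample in fixed amounts, averaged 11.81 and 12.09 over 9 probe sets in the control STZ arrays and 11.13, 11.38 and 11.67 in the low protein STZ arrays. All 9 probe sets were lower in every low protein STZ array than in both control STZ arrays, and the mean difference was -0.558 after STZ and -0.393 in sham animals. Controls added before labelling, the poly-A transcripts of B. subtilis, averaged 9.40 and 9.65 against 9.02, 8.59 and 8.77. Among the mouse genes the median difference was -0.00372 at a level up to 8 and -0.46 at 12 to 14. Cyclic loess, an alternative scaling that fits differences between arrays along the signal range and assumes that most genes do not differ, took the median at 12 to 14 to -0.04. Above 14, where 62 genes lie, most acinar enzymes among them, it took the median from -0.392 to 0.313, so it did not even out the top of the range. Each gene group is therefore given on both scales, and the part of the signal shift in the deposited differences was not tested.

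**Figure D1:**
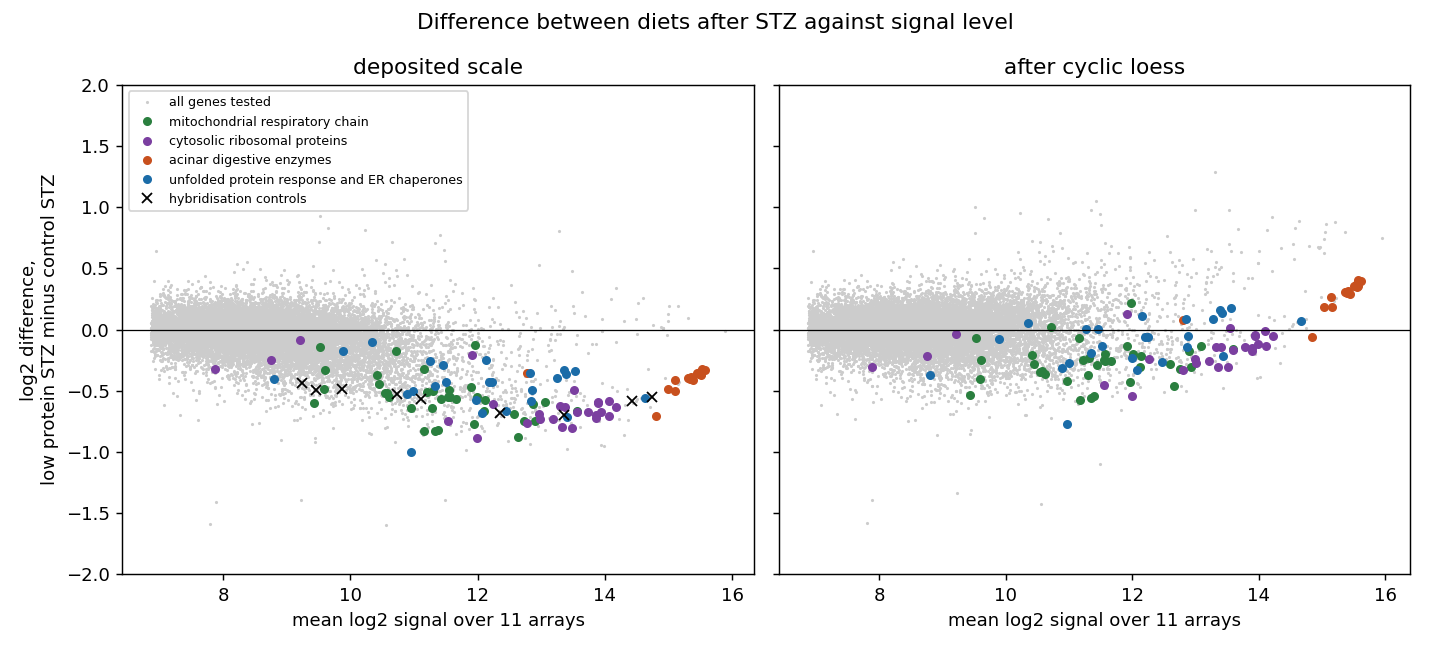
Log2 difference (low protein STZ minus control STZ) against the mean log2 signal over 11 arrays, for the 15897 genes tested, on the deposited scale (left) and after cyclic loess (right); colours mark 4 gene lists and crosses mark the 9 hybridisation controls. On the left the crosses and the coloured genes lie below 0; on the right the acinar enzymes lie mostly above 0 and the respiratory chain mostly below.

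No single gene passed the threshold. With limma and Benjamini-Hochberg adjustment over 15897 genes, 0 genes (0%) had an adjusted p under 0.05, and the smallest adjusted p was 0.348. At an unadjusted p under 0.05, 271 genes (1.7%) were higher and 1238 (7.79%) lower in low protein STZ pancreas on the deposited scale, against 588 (3.7%) and 591 (3.72%) after cyclic loess. Of the 271 and 1238 genes, 268 and 589 were also at p under 0.05 in the same direction after cyclic loess. Over all genes 62.3% of differences were below 0 and 37.7% above, and after cyclic loess 48.4% were below and 51.6% above. All 3 low protein STZ arrays lay below both control STZ arrays for 2666 genes (16.8%) and above both for 1189 (7.48%). The median difference of all genes was -0.0408, and the median SE was 0.11.

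Islet hormone transcripts did not separate the 2 diets after STZ. Ins2, an insulin gene of the mouse, read 13.10 and 13.41 in the control STZ arrays and 12.89, 13.57 and 12.93 in the low protein STZ arrays. The groups overlapped, and the difference was -0.12 ± 0.31 (adjusted p = 0.941, limma). Its 95% interval ran from -0.81 to 0.57, which allows low protein to control ratios from 0.572 to 1.48. Iapp, the amyloid peptide released with insulin, read 12.72 and 12.40 against 12.15, 12.76 and 12.51, with a difference of -0.08 ± 0.38 (interval -0.94 to 0.77). Both signs turned after cyclic loess, to 0.42 for Ins2 and 0.38 for Iapp, and neither differed from 0 at p under 0.05 on that scale. The annotation used here names no probe set for Ins1, so that gene is left out.

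The hormones of the other islet cells also overlapped between the diets. Gcg, the glucagon gene of α cells, read 13.36 and 13.12 against 12.94, 12.85 and 13.20, a difference of -0.25 ± 0.46 (ratios from 0.415 to 1.71), which became 0.23 after cyclic loess. Sst, somatostatin of δ cells, read 9.87 and 9.74 against 9.85, 9.63 and 9.65 (-0.09 ± 0.26). For Ppy, the pancreatic polypeptide, the values were 8.67 and 8.73 against 8.74, 8.52 and 8.59 (-0.08 ± 0.25). Ghrl, the appetite hormone ghrelin, differed by -0.09 ± 0.09. Of the 8 hormone genes tested (9 listed), 7 were lower and 1 higher, 0 at p under 0.05 in either direction, with a median of -0.0875 that turned to 0.151 after cyclic loess. With low protein STZ 1 left out the deposited median was -0.0421. The intervals of Iapp and Gcg include differences of over 1.5-fold in either direction.

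**Figure D2:**
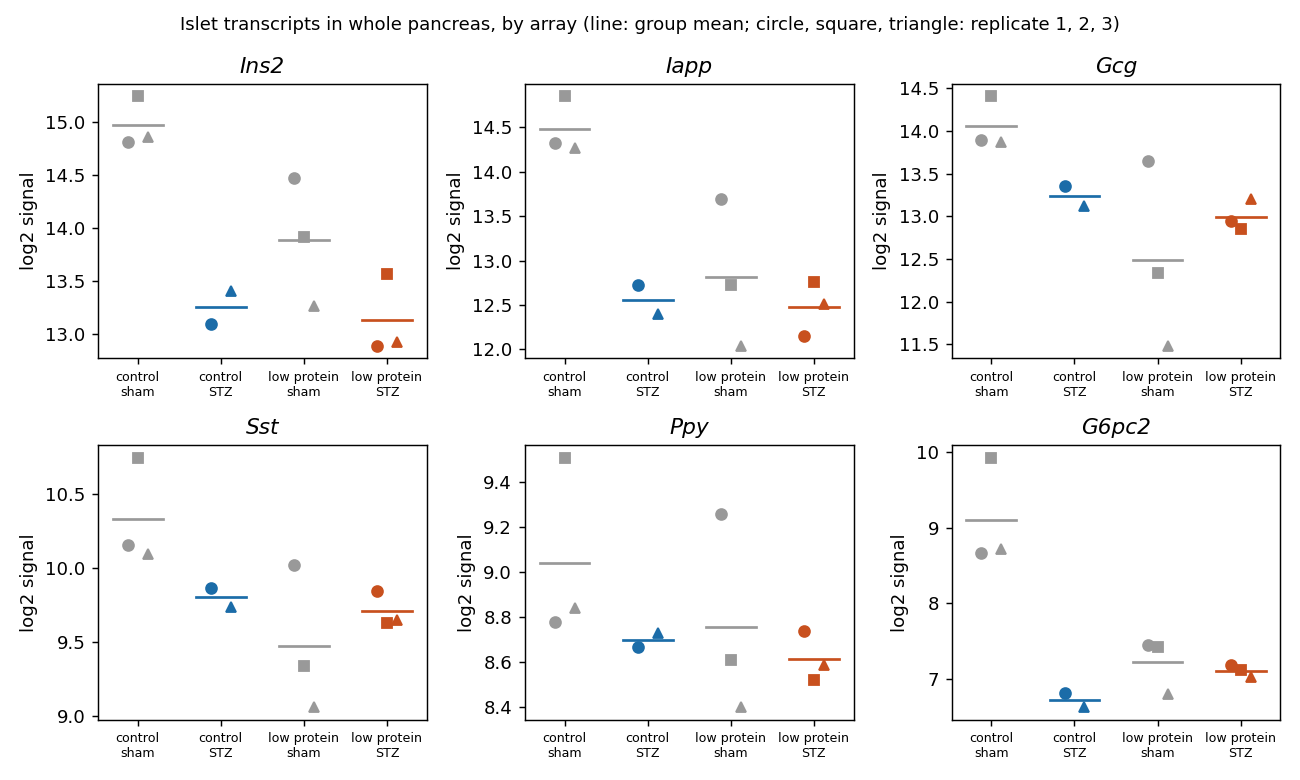
Log2 signal of 6 islet transcripts on each of the 11 arrays by group (symbols give the replicate, lines the group mean). The blue and orange STZ arrays overlap for Ins2, Iapp, Gcg, Sst and Ppy, and for G6pc2 the 3 low protein STZ arrays (7.02 to 7.18) lie above both control STZ arrays (6.62 and 6.81).

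Genes of β-cell identity and glucose sensing were evenly divided. Of 17 tested (24 listed, 20 measured), 9 were higher and 8 lower, 0 at p under 0.05, with a median of 0.0198 (0.0438 after cyclic loess). G6pc2, the islet form of glucose-6-phosphatase, which works against glucose phosphorylation in β cells, read 6.81 and 6.62 in the control STZ arrays and 7.18, 7.11 and 7.02 in the low protein STZ arrays. The groups did not overlap, and the difference of 0.39 ± 0.33 did not pass (adjusted p = 0.759, limma), with the control STZ arrays under the limit for dim genes. Slc2a1, the glucose transporter GLUT1, differed by -0.35 ± 0.16, Ero1b, an oxidase that helps insulin fold, by -0.42 ± 0.29 (0.02 after cyclic loess) and the transcription factor Nkx6-1 by -0.12 ± 0.11. The Nkx6-1 difference was 0.00 without low protein STZ 3.

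Granins and the enzymes that cut prohormones gave a similar picture, with 6 of 14 tested higher and 8 lower (median -0.0326, and 0.0369 after cyclic loess). That median ranged from -0.0709 with control STZ 1 left out to 0.0206 with low protein STZ 3 left out. Of the 14, 1 was lower at p under 0.05, against 7.79% of all genes. This was Ptprn, a membrane protein of hormone granules also known as the autoantigen IA-2, which read 10.44 and 10.32 against 10.18, 10.20 and 10.03. All 3 low protein STZ arrays were below both control STZ arrays, by -0.25 ± 0.08 on the mean (adjusted p = 0.384, limma), and the difference was -0.11 after cyclic loess. Cpe, which trims the ends of cut prohormones, differed by -0.28 ± 0.28, the peptide-amidating enzyme Pam by -0.18 ± 0.11 and the granin Chgb by 0.11 ± 0.11. Among 8 genes of α, δ and PP cell identity, 2 were higher and 6 lower (median -0.0576, and -0.049 after cyclic loess). The amino acid transporter Slc38a5, which marks growing α cells but is also expressed in acinar cells, differed by -0.55 ± 0.29 (-0.20 after cyclic loess), and Hhex, a regulator of δ cells, by -0.23 ± 0.15.

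By a rule of no overlap between groups and at least 1.5-fold, 212 genes were lower and 9 higher in low protein STZ pancreas on the deposited scale, against 32 and 52 after cyclic loess. The 12 lower genes with the smallest p and all 9 higher genes are described here, and none passed (adjusted p from 0.348 to 0.433, limma). The smallest p of all belonged to Atp2c2, a pump that loads calcium and manganese into the Golgi and secretory pathway. It read 10.79 and 10.56 in the control STZ arrays and 9.72, 10.00 and 10.09 in the low protein STZ arrays, 1.67-fold lower (-0.74 ± 0.12). Every low protein STZ array was below both control STZ arrays, and the difference was -0.61 after cyclic loess. Mtm1, a phosphoinositide phosphatase of endosomes, read 13.24 and 13.42 against 12.37, 12.22 and 12.60 (-0.93 ± 0.17, and -0.50 after cyclic loess). The 2 other probe sets of Mtm1 gave -0.92 and -0.10.

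Several of these 12 genes work in mitochondria or lipid handling. Dbi, the acyl-CoA binding protein that carries fatty acids as CoA esters, read 11.13 and 11.11 against 9.98, 10.40 and 10.23. The difference of -0.92 ± 0.18 (1.89-fold lower) was met by its 3 other probe sets, at -0.94 to -0.79, and it was -0.72 after cyclic loess. Ndufb2, an accessory subunit of respiratory complex I, read 11.55 and 11.45 against 10.34, 11.04 and 10.56 (-0.86 ± 0.17). Cox6c, a subunit of cytochrome oxidase, read 12.40 and 12.15 against 11.24, 11.71 and 11.56 (-0.77 ± 0.16), and its other probe set gave -0.76. Higd2a, which takes part in assembling respiratory complexes, differed by -0.65 ± 0.12 and Mff, the adaptor that recruits the mitochondrial fission machinery, by -0.60 ± 0.12.

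The remaining lower genes have other roles. Nsa2, a factor of ribosome assembly, differed by -0.66 ± 0.13, the histone H2aj by -0.64 ± 0.13, Hamp2, a mouse hepcidin gene, by -0.63 ± 0.14 and Creg1, a glycoprotein of the endolysosomal pathway, by -0.62 ± 0.13. The ribosomal protein gene Rpl41 differed by -0.74 ± 0.16, and after cyclic loess by -0.14. In all, 11 of the 12 kept p under 0.05 after cyclic loess, and Rpl41 did not. Both scales rest on the arrays that chose these genes, so this count is not separate evidence. Of the 12 genes, 10 had further probe sets, 20 together, and 10 of these were lower at p under 0.05, in 7 genes.

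Higher genes rested more often on a single probe set. Oga, the enzyme that removes the sugar tag O-GlcNAc from nuclear and cytoplasmic proteins, read 10.52 and 10.24 in the control STZ arrays and 11.15, 11.01 and 11.13 in the low protein STZ arrays. Each low protein STZ array was above both control STZ arrays, by 0.72 ± 0.13 on the mean (1.64-fold, adjusted p = 0.348, limma), and by 0.90 after cyclic loess. The 5 other Oga probe sets gave -0.14 to 0.10. Gss, glutathione synthetase, read 11.14 and 10.92 against 11.90, 11.69 and 11.61 (0.70 ± 0.18), and its other probe set gave -0.15. Eef1akmt1, which methylates the translation elongation factor eEF1A, read 9.20 and 9.05 against 10.13, 10.06 and 9.34 (0.72 ± 0.19), and its 3 other probe sets gave -0.19 to 0.10. Without low protein STZ 3 the Eef1akmt1 difference was 0.97 ± 0.10 with an adjusted p of 0.0351 (limma).

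The other 6 higher genes were Pvr, an adhesion receptor of the nectin family (0.93 ± 0.26), Ptgr2, a prostaglandin reductase (0.83 ± 0.26), Armc8, a subunit of a ubiquitin ligase (0.81 ± 0.22), the homeobox gene Hoxa5 (0.77 ± 0.26), the potassium channel Kcnh3 (0.65 ± 0.22) and the zinc finger gene Zfp94 (0.65 ± 0.24). Zfp94 read 6.17 and 6.80 in the control STZ arrays, under the limit for dim genes. Of the 9 higher genes, 8 had further probe sets, 28 together, and 1 of the 28 was higher at p under 0.05. That one belongs to Kcnh3 (0.25 ± 0.11), and another Kcnh3 probe set was lower at p under 0.05 (-0.34 ± 0.07), so the probe sets of this gene disagree. After cyclic loess all 9 remained higher at p under 0.05, as did 268 of all 271 genes higher at p under 0.05. Cyclic loess rescales the same arrays that chose these genes, so this count is not separate evidence.

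**Figure D3:**
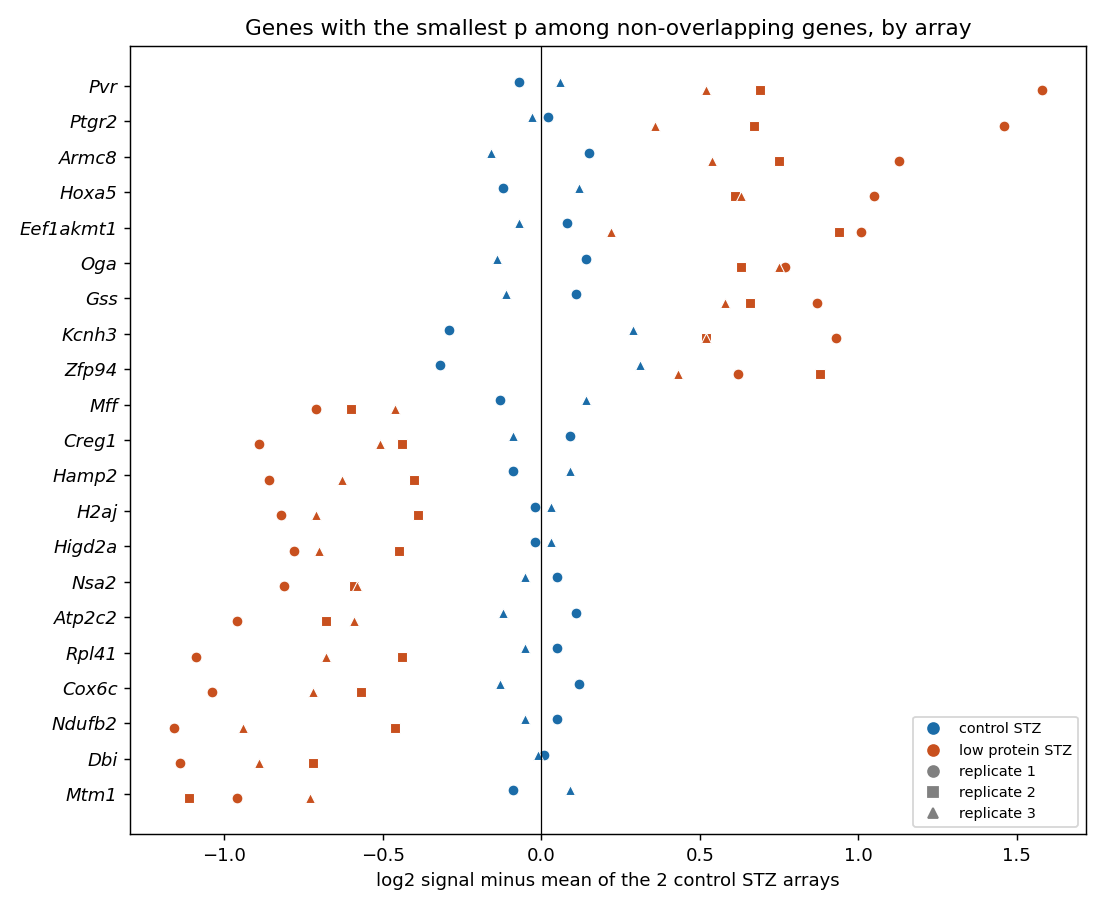
Log2 signal of the 9 higher and 12 lower genes on each STZ array, minus the mean of the 2 control STZ arrays (colours give the group, symbols the replicate). Orange and blue do not overlap for any gene, as the rule required, and low protein STZ 1 is farthest from the control arrays for most genes, for example Pvr, Ptgr2 and Ndufb2.

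Genes of the mitochondrial respiratory chain, the nuclear-encoded subunits that carry electrons and make ATP, were lower on both scales. All 36 tested genes (38 listed) had a difference below 0, against 62.3% of all genes, and 27 were lower at p under 0.05 (against 7.79% of all genes). The list averaged 11.75 and 11.58 in the control STZ arrays and 10.78, 11.28 and 11.27 in the low protein STZ arrays, so the groups did not overlap. At a level of 10 to 12, where the list's median level of 11.4 lies, 78.5% of genes were lower on the deposited scale (median -0.165). The list's median difference was -0.562 on the deposited scale and -0.269 after cyclic loess, where 34 of 36 were lower and 12 at p under 0.05. On that scale 48.4% of all genes were lower and 3.72% lower at p under 0.05. The list's deposited median was -0.394 without low protein STZ 1.

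Ndufb2 is not among the 36 listed genes. Beside Cox6c, the members with the smallest p were subunits of ATP synthase and cytochrome oxidase. Cox7a2, of cytochrome oxidase, read 13.02 and 12.96 against 11.63, 12.51 and 12.20, 1.84-fold lower (-0.88 ± 0.21). Atp5l, of the ATP synthase membrane sector, read 11.89 and 11.57 against 10.51, 11.28 and 10.91 (-0.83 ± 0.19), and Atp5j, of its stalk, read 11.68 and 11.33 against 10.24, 10.93 and 10.86 (-0.83 ± 0.20). After cyclic loess these differences were -0.46, -0.56 and -0.58, each at p under 0.05. None passed over all genes (adjusted p = 0.348 each, limma).

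Cytosolic ribosomal protein genes showed the lowest median of the lists on the deposited scale and a smaller one after cyclic loess. Of 40 listed genes, 27 were measured and 26 tested. All 26 were lower, 23 at p under 0.05, with a median of -0.672. Of all genes 62.3% were lower and 7.79% lower at p under 0.05. At a level of 12 to 14, where the list's median level of 13.3 lies, 87.0% of genes were lower (median -0.46). After cyclic loess 24 of the 26 were lower, 6 at p under 0.05, with a median of -0.157. On that scale 48.4% of all genes were lower and 3.72% lower at p under 0.05. The list averaged 13.07 and 13.02 in the control STZ arrays and 12.03, 12.68 and 12.58 in the low protein STZ arrays. Without low protein STZ 1, the lowest array, the median was -0.417. Rps9, of the small subunit, read 12.71 and 12.35 against 11.30, 11.98 and 11.65, 1.85-fold lower (-0.89 ± 0.21), and was -0.54 after cyclic loess. Rps15 (-0.80 ± 0.20), Rpl22 (-0.76 ± 0.19) and Rps19 (-0.75 ± 0.18) followed, and after cyclic loess they were at -0.31, -0.33 and -0.45, each at p under 0.05. None passed (adjusted p = 0.348 each, limma).

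Acinar digestive enzymes, at the upper end of the signal range, were lower on the deposited scale and higher after cyclic loess. All 18 tested genes (27 listed) were lower, each at p under 0.05 and with no overlap of groups, with a median of -0.381. Of all genes 62.3% were lower, 7.79% lower at p under 0.05 and 16.8% lower with no overlap. Among the 62 genes at a level above 14, 75.8% were lower, with a median of -0.392. After cyclic loess 17 of the enzymes were higher and 1 lower, 0 at p under 0.05, with a median of 0.315. The deposited median was -0.23 without low protein STZ 1. Their mean level was 15.32 and 15.39 in the control STZ arrays against 14.65, 15.04 and 15.16, and the hybridisation controls were lower by a mean of 0.558 in the same arrays. Prss3, a trypsinogen, read 15.15 and 15.20 against 14.06, 14.48 and 14.86 (-0.70 ± 0.18), and was -0.06 after cyclic loess. Klk1 (kallikrein, -0.50 ± 0.13), Ctrc (chymotrypsin C, -0.42 ± 0.12) and Ctrb1 (chymotrypsinogen B, -0.37 ± 0.12) turned to 0.18, 0.29 and 0.35.

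The proteins that pack and release zymogen granules followed the enzymes. Of 17 tested, 15 were lower and 2 higher, 6 lower at p under 0.05 (against 62.3% and 7.79% of all genes). The list's median was -0.395, whereas 11 were higher after cyclic loess (median 0.0759, 0 at p under 0.05). The deposited median was -0.128 without low protein STZ 1. Vamp8, a fusion protein of zymogen granules, read 11.95 and 11.98 against 11.34, 11.55 and 11.52 (-0.50 ± 0.13, and -0.18 after cyclic loess). The trypsin inhibitor Spink1 (-0.60 ± 0.16), the granule membrane protein Cuzd1 (-0.57 ± 0.18) and the granule lectin Zg16 (-0.41 ± 0.13) stood at 0.01, 0.06 and 0.30 after cyclic loess. Of the 7 genes of the Reg family, lectins secreted by acinar cells in response to injury, 5 were lower and 2 higher (median -0.172, and 0.0346 after cyclic loess). Of the 7, 2 were lower at p under 0.05 and 4 lower with no overlap. Of all genes 62.3% were lower, 7.79% lower at p under 0.05 and 16.8% lower with no overlap. Reg1 differed by -0.43 ± 0.16 and Reg3d by -0.50 ± 0.20, which became 0.26 and -0.08, and Reg4 by -0.17 ± 0.11.

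The unfolded protein response restores folding capacity in the ER by raising chaperones, and many of its targets carry an ER stress response element in the promoter. This element (ERSE, the letters CCAAT, then 9 bases of any kind, then CCACG, searched on both strands) was found within 250 bases before the start of 9 of the 22 listed genes with a promoter in the RefSeq table (40.9%), and of 35 of all 27025 genes there (0.13%). A match is a description of the letters and not of binding. It was found in 0 of 26 respiratory chain and 0 of 22 ribosomal protein promoters. The promoters of 3 chaperone genes are shown because they carry the element and belong to a list whose 25 tested members were all lower on the deposited scale. They were chosen for the element after the values had been seen. Each runs 5′ to 3′ on the gene's strand in GRCm38.p6 (RefSeq), with the element in capitals, for Pdia6 at chr12:17266339-17266588 (plus strand), for Hspa5 at chr2:34771840-34772089 (plus strand) and for Hsp90b1 at chr10:86705445-86705694 (minus strand), where the element occurs 2 times.
Pdia6: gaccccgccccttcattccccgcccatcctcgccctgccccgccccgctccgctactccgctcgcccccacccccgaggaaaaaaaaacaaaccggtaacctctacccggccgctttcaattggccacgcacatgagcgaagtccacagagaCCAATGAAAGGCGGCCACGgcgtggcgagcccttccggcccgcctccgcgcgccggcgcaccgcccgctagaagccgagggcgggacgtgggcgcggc
Hspa5: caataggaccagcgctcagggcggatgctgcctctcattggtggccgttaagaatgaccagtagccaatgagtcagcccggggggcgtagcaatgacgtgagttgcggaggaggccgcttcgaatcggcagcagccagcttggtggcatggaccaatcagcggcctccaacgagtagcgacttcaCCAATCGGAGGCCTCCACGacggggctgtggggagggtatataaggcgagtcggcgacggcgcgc
Hsp90b1: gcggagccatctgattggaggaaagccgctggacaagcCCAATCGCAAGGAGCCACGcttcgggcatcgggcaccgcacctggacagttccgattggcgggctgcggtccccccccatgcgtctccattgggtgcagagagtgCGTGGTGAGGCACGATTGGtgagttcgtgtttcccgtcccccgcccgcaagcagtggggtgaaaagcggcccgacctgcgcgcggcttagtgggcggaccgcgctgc

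Transcripts of this response varied widely among the low protein STZ arrays. The list averaged 12.51 and 12.16 in the control STZ arrays and 11.33, 12.00 and 12.32 in the low protein STZ arrays, so low protein STZ 3 lay within the range of the controls. All 25 tested genes were lower, 5 at p under 0.05, with a median of -0.431. Of all genes 62.3% were lower and 7.79% lower at p under 0.05. At a level of 12 to 14, where the list's median level of 12.1 lies, 87.0% of genes were lower (median -0.46). After cyclic loess 15 of the 25 were lower and 10 higher, 0 at p under 0.05, with a median of -0.0634. The deposited median was -0.162 with low protein STZ 1 left out, -0.28 with control STZ 1 left out and -0.693 with low protein STZ 3 left out. Of the genes with printed promoters, Pdia6, a protein disulphide isomerase, read 12.58 and 12.14 against 11.17, 12.06 and 12.13 (-0.58 ± 0.26), and was -0.23 after cyclic loess. Hspa5, the ER chaperone BiP, read 14.08 and 13.45 against 12.61, 13.61 and 14.07, and Hsp90b1, the chaperone GRP94, read 14.12 and 13.43 against 12.48, 13.77 and 14.07. Their groups overlapped, the differences were -0.34 ± 0.36 and -0.33 ± 0.44, and they turned to 0.17 and 0.16 after cyclic loess. Without low protein STZ 1 they were 0.08 and 0.15, and Hsp90b1 was at 0.01 without control STZ 1.

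The members with the smallest p kept their groups apart. Sdf2l1, a cofactor of BiP, read 12.19 and 11.34 against 10.48, 11.13 and 10.68, 2.0-fold lower (-1.0 ± 0.40, adjusted p = 0.462, limma), and was -0.77 after cyclic loess. The control arrays differed from each other by nearly as much as the means did. Herpud1, a factor of ER-associated degradation, read 12.84 and 12.92 against 12.22, 11.73 and 12.70 (-0.66 ± 0.28), and Sec61b, of the channel that admits new proteins to the ER, read 13.80 and 13.58 against 12.44, 13.27 and 13.23 (-0.71 ± 0.21). P4hb, the main disulphide isomerase, differed by -0.56 ± 0.22 (0.07 after cyclic loess).

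The ATF4 pathway, which answers a shortage of amino acids as well as ER stress, was lower in most members. Of 20 genes tested (21 listed), 17 were lower and 3 higher, 2 lower at p under 0.05 (62.3% and 7.79% of all genes were lower and lower at p under 0.05), with a median of -0.211 that was -0.0369 after cyclic loess (12 lower, 8 higher). The median was -0.113 without control STZ 1, -0.0481 without low protein STZ 1 and -0.418 without low protein STZ 3. Nupr1, a stress-induced chromatin protein of acinar cells, read 14.47 and 14.70 against 13.82, 13.54 and 13.80 (-0.86 ± 0.22), with its other probe set at -1.03 and a value of -0.27 after cyclic loess. Atf4 itself read 11.72 and 11.52 against 10.88, 11.09 and 11.30 (-0.53 ± 0.13, and -0.26 after cyclic loess), and its 2 other probe sets gave -0.53 and 0.03. The groups did not overlap for either gene. Fgf21, a hormone that ATF4 induces, differed by -0.48 ± 0.22 with overlap. Of 15 amino acid transporters, 11 were lower and 4 higher, 0 lower at p under 0.05, against 62.3% and 7.79% of all genes. Slc38a2 differed by -0.48 ± 0.30 and Slc7a3 by -0.37 ± 0.26. The transporter list had a deposited median of -0.136 (0.00371 after cyclic loess). That median was -0.205 without control STZ 1, -0.0879 without control STZ 3, -0.0323 without low protein STZ 1 and -0.298 without low protein STZ 3.

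Protein breakdown genes were lower on both scales. Of the 26 proteasome subunits tested, 25 were lower and 1 higher, 6 lower at p under 0.05 and 5 lower with no overlap (median -0.335). Of all genes 62.3% were lower, 7.79% lower at p under 0.05 and 16.8% lower with no overlap. The list averaged 10.39 and 10.08 in the control STZ arrays and 9.64, 10.10 and 10.06 in the low protein STZ arrays, so the groups overlapped. After cyclic loess 22 of the 26 were lower, 3 at p under 0.05 (median -0.201), against 48.4% and 3.72% of all genes. The deposited median was -0.145 without low protein STZ 1, -0.17 without control STZ 1 and -0.525 without control STZ 3. Psmb5, the subunit with chymotrypsin-like activity, read 11.40 and 10.98 against 10.31, 10.86 and 10.80 (-0.54 ± 0.18), and was -0.31 after cyclic loess. The core subunits Psmb2, at -0.39 ± 0.12, and Psmb3, at -0.40 ± 0.14, also kept their groups apart, and Psma5 (-0.49 ± 0.19) did not.

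Genes that prepare peptides for MHC class I were lower after STZ, and the list's median was near 0 in sham animals, though not every member was. Of 12 tested (16 listed), 10 were lower and 2 higher, 7 lower at p under 0.05 and 7 with no overlap. Over all genes 62.3% were lower, 7.79% lower at p under 0.05 and 16.8% lower with no overlap. After cyclic loess 9 were lower, 4 at p under 0.05, against 48.4% and 3.72% of all genes. The list's deposited median was -0.254, and -0.195 after cyclic loess. The deposited median stayed between -0.32 and -0.222 when each STZ array was left out. In sham animals it was -0.0206 (7 lower, 5 higher), and the difference between these medians was not tested. Psmb10, an interferon-induced subunit of the immunoproteasome, read 10.80 and 10.65 against 9.71, 10.28 and 10.03, 1.64-fold lower (-0.72 ± 0.16, adjusted p = 0.348, limma), and was -0.57 after cyclic loess. Psme1, a proteasome activator, read 8.39 and 7.98 against 7.87, 7.75 and 7.53 (-0.47 ± 0.16), and Tap2, of the peptide pump, read 8.69 and 8.67 against 8.55, 8.39 and 8.33 (-0.26 ± 0.08). H2-D1, a class I heavy chain, differed by -0.38 ± 0.13 and by 0.04 after cyclic loess. Its 8 other probe sets ranged from -0.60 to 0.23, and the class I genes are near-identical copies that probe sets may not tell apart. In sham animals H2-D1 differed by -0.49 ± 0.11, Psmb10 by -0.27 ± 0.14, Tap2 by -0.08 ± 0.07 and Psme1 by -0.01 ± 0.14.

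MHC class II genes, which mark antigen-presenting cells, gave a median that varied with the arrays left out. Of 7 tested, 6 were lower on each scale, against 62.3% of all genes on the deposited scale and 48.4% after cyclic loess. The list's median was -0.151, and -0.0732 after cyclic loess. Its deposited median was 0.0245 without control STZ 1, -0.289 without control STZ 3, -0.10 without low protein STZ 1 and -0.0758 without low protein STZ 2. H2-DMa, which loads peptides onto class II molecules, differed by -0.28 ± 0.11 with no overlap, and by -0.34 to -0.18 when each STZ array was left out. H2-Eb1 differed by -0.16 ± 0.15, and by 0.02 without control STZ 1. Of 21 interferon response genes, 9 were higher and 12 lower, 0 at p under 0.05 (median -0.0328, and 0.03 after cyclic loess).

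Antioxidant enzymes and targets of NRF2, the regulator of the response to oxidants, were lower in most members on both scales. Of 24 tested (28 listed), 19 were lower and 5 higher on each scale, with medians of -0.237 and -0.141. Of all genes 62.3% were lower on the deposited scale and 48.4% after cyclic loess. On the deposited scale 6 of the 24 were lower and 1 higher at p under 0.05, against 7.79% and 1.7% of all genes. After cyclic loess 5 were lower and 1 higher at p under 0.05, against 3.72% and 3.7% of all genes. Without control STZ 1 the list's deposited median was -0.145. Sod1, the cytosolic superoxide dismutase, averaged 11.02 ± 0.03 (SD, n = 2) in the control STZ arrays and read 10.26, 10.55 and 10.54 in the low protein STZ arrays (-0.57 ± 0.14), and was -0.37 after cyclic loess. Gpx1, the main glutathione peroxidase, read 11.31 and 11.22 against 10.33, 10.85 and 10.39 (-0.74 ± 0.19). Groups did not overlap for either gene. Txn1 (thioredoxin) differed by -0.76 ± 0.21, with another probe set at 0.62, and Gpx4, which reduces lipid peroxides, by -0.57 ± 0.16. None of these passed (adjusted p = 0.348 each, limma).

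**Figure D4:**
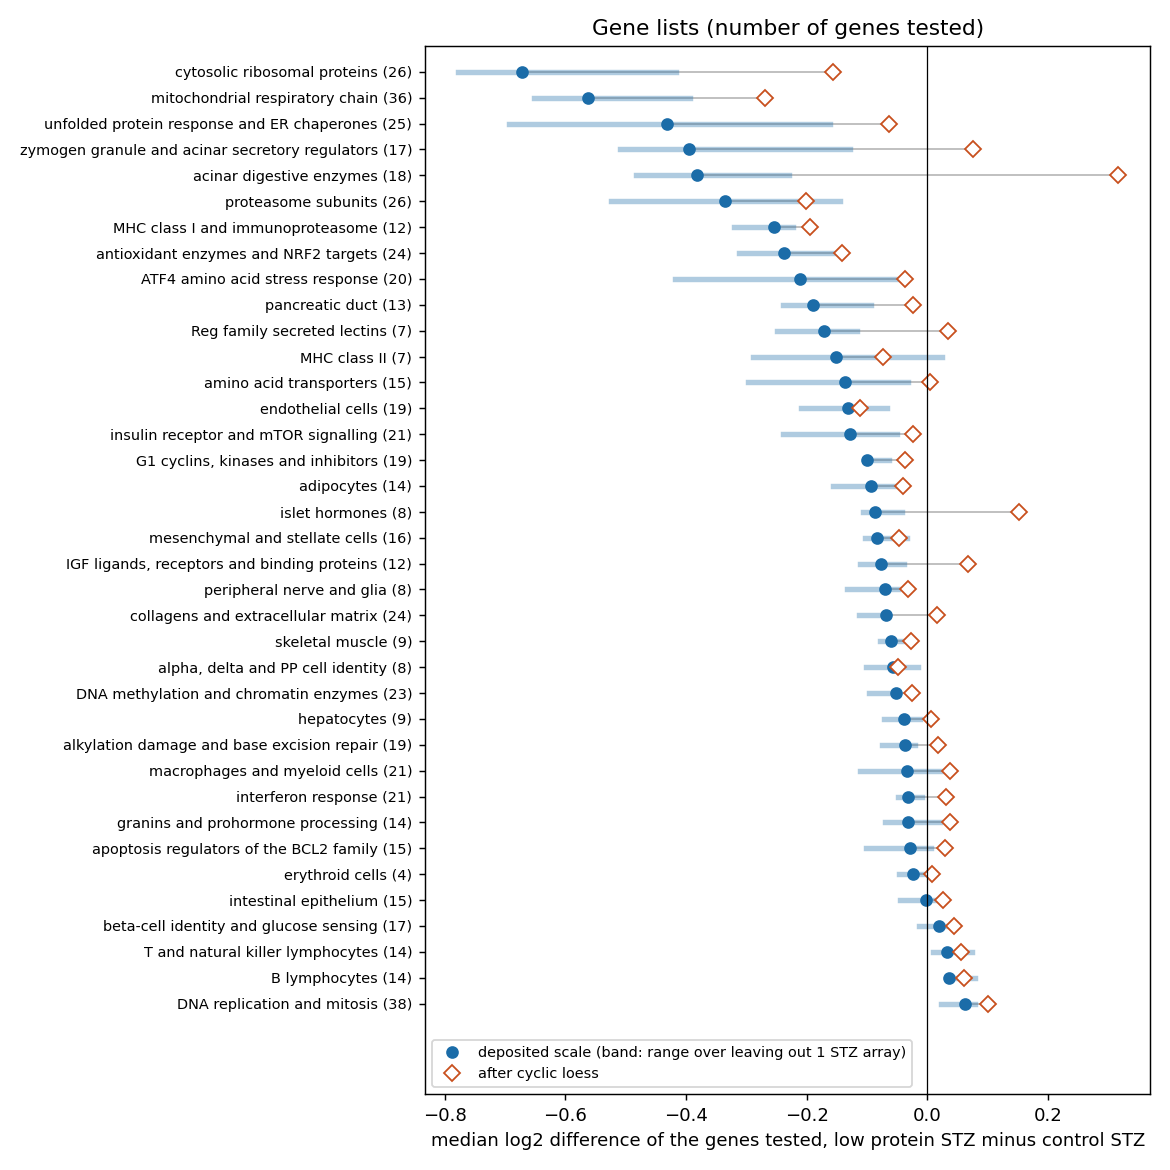
Median log2 difference (low protein STZ minus control STZ) of the genes tested in each list, on the deposited scale (circles, with a band for the range when each STZ array is left out) and after cyclic loess (diamonds). Ribosomal proteins (-0.672) and the respiratory chain (-0.562) are lowest on the deposited scale, acinar enzymes move from -0.381 to 0.315, and DNA replication and mitosis (0.0622 and 0.10) lies above 0 on both.

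Growth factor genes lay on both sides of 0. Of 12 genes of insulin-like growth factors (IGF), their receptors and binding proteins, 6 were higher and 6 lower. At p under 0.05, 1 was higher and 1 lower, against 1.7% and 7.79% of all genes. The list's median was -0.0775, and 0.068 after cyclic loess. With low protein STZ 1 left out the deposited median was -0.0389. Igf1, a growth factor for islet and acinar cells, read 10.71 and 10.90 against 10.06, 10.28 and 10.33, 1.5-fold lower (-0.58 ± 0.14, adjusted p = 0.348, limma), and was -0.40 after cyclic loess. Its receptor Igf1r read 10.02 and 10.07 against 10.17, 10.40 and 10.54, a difference of 0.32 ± 0.11 (adjusted p = 0.404, limma) that was 0.46 after cyclic loess. The ligand was thus lower and the receptor higher in every low protein STZ array, on these probe sets. The 3 other Igf1 probe sets gave -0.06 to 0.04 and the 4 other Igf1r probe sets -0.14 to -0.02. The binding proteins Igfbp1, at 0.21 ± 0.11, and Igfbp7, at -0.33 ± 0.17, were not at p under 0.05.

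Insulin receptor and mTOR signalling, which couples nutrients to protein synthesis, was lower in 17 and higher in 4 of 21 genes tested (median -0.129). Of the 21, 4 were lower at p under 0.05 and 5 lower with no overlap. Of all genes 62.3% were lower, 7.79% lower at p under 0.05 and 16.8% lower with no overlap. After cyclic loess 12 of the 21 were lower and 9 higher (median -0.0241), against 48.4% of all genes lower. The list's deposited median was -0.215 without control STZ 1, -0.0619 without control STZ 3, -0.0498 without low protein STZ 2 and -0.24 without low protein STZ 3. Ddit4, a stress-induced inhibitor of mTOR complex 1, read 9.93 and 10.15 against 7.99, 9.07 and 8.88. It was 2.62-fold lower (-1.39 ± 0.57, adjusted p = 0.476, limma), with no overlap between groups, and was -1.34 after cyclic loess. Eif4ebp1, the repressor of translation that mTOR phosphorylates, read 11.33 and 11.62 against 10.53, 11.09 and 11.20 (-0.53 ± 0.19). Mtor differed by -0.18 ± 0.08 (-0.02 after cyclic loess) and its upstream inhibitor Tsc2 by -0.23 ± 0.10 with overlap.

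Genes of DNA replication and mitosis had the highest median of the lists on the deposited scale, while after cyclic loess acinar enzymes (0.315) and islet hormones (0.151) lay above them. Of 38 tested (43 listed), 24 were higher and 14 lower, 3 higher and 0 lower at p under 0.05 (median 0.0622). Of all genes 37.7% were higher, with 1.7% higher and 7.79% lower at p under 0.05 (median -0.0408). After cyclic loess 28 of the 38 were higher (median 0.10), against 51.6% of all genes. With control STZ 3 left out the list's deposited median was 0.0229, and with low protein STZ 1 left out it was 0.0298. Cdc6, which licenses replication origins, read 6.87 and 6.76 against 7.28, 7.15 and 7.10 (0.36 ± 0.09, adjusted p = 0.348, limma), close to the limit for dim genes. Aurkb, a mitotic kinase, read 8.56 and 8.79 against 8.99, 8.90 and 8.88 (0.25 ± 0.11), and Cenpa, the centromeric histone, read 8.26 and 8.51 against 9.34, 8.83 and 8.46 (0.49 ± 0.21). The groups did not overlap for Cdc6 and Aurkb and overlapped for Cenpa. Other probe sets gave -0.05 for Aurkb and -0.11 and 0.11 for Cenpa, none of them at p under 0.05. Cenpq, of the inner kinetochore, differed by 0.14 ± 0.09. Of 19 genes that control G1, 5 were higher and 14 lower (median -0.10, and -0.0375 after cyclic loess). Of these 19, 0 were lower at p under 0.05, and 62.3% of all genes were lower and 7.79% lower at p under 0.05. The kinase inhibitor Cdkn1b differed by -0.39 ± 0.18 and the cyclin Ccnd3 by -0.32 ± 0.19.

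Most vessel markers were lower. Duct markers were lower at about the share of all genes by sign, and more often than all genes with no overlap. Of 19 endothelial genes, 16 were lower and 3 higher, 3 lower at p under 0.05, against 62.3% and 7.79% of all genes. After cyclic loess 13 of the 19 were lower, against 48.4% of all genes. The list's median was -0.131, and -0.112 after cyclic loess. Its deposited median was -0.0668 without control STZ 1 and -0.209 without control STZ 3. Plvap, of the diaphragms of fenestrated capillaries, read 9.51 and 9.60 against 9.01, 8.81 and 9.18 (-0.55 ± 0.20), and was -0.50 after cyclic loess. Sox17 (-0.27 ± 0.11) and Robo4 (-0.20 ± 0.09) also had no overlap, Emcn (-0.27 ± 0.15) did, and the general endothelial markers Pecam1, Cdh5 and Kdr differed by -0.10, -0.07 and 0.05. Of 13 duct genes, 9 were lower and 4 higher on each scale (median -0.189, and -0.0238 after cyclic loess), and in sham animals the median was 0.0573. On the deposited scale 2 of the 13 were lower at p under 0.05 and 6 lower with no overlap, against 7.79% and 16.8% of all genes. The defining duct markers Krt19 and Sox9 lay on either side of 0, at -0.43 and 0.14. Leaving out control STZ 3 gave a duct median of -0.0934, and leaving out low protein STZ 3 gave -0.117. Tff2, a trefoil peptide also made by mucous cells, differed by -0.62 ± 0.17 (-0.02 after cyclic loess), the water channel Aqp1 by -0.34 ± 0.14 (-0.32) and the keratin Krt18 by -0.38 ± 0.18 (-0.14).

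Stromal and immune cell lists lay near the median of all genes. The median was -0.069 for 24 collagens and matrix genes (0.0156 after cyclic loess), with Sparc at -0.40 ± 0.24 and Col18a1 at -0.17 ± 0.09. For 16 genes of mesenchymal and stellate cells it was -0.0833 (-0.0474 after cyclic loess). Among 21 myeloid genes, 10 were higher and 11 lower (median -0.0344, and 0.037 after cyclic loess). That deposited median was -0.111 without control STZ 3 and 0.0378 without control STZ 1. Tyrobp, an adaptor of myeloid and natural killer cell receptors, read 8.81 and 8.78 against 9.05, 9.15 and 8.99, higher in every low protein STZ array (0.27 ± 0.08, adjusted p = 0.352, limma), and was 0.31 after cyclic loess. The complement gene C1qb differed in the other direction, by -0.36 ± 0.18. B lymphocyte genes were higher in 9 and lower in 5 of 14 (median 0.0364, and 0.0606 after cyclic loess), with the receptor Btla at 0.20 ± 0.08 and Cd79b at -0.22 ± 0.11. T and natural killer genes were higher in 10 and lower in 4 of 14 (median 0.0331, from 0.00876 to 0.0736 over the STZ arrays left out, and 0.0552 after cyclic loess), with the granule protease Gzmb at 0.21 ± 0.10 and Cd3e at 0.18 ± 0.11.

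The diet difference after STZ was then set beside the diet difference in sham animals, which rests on other arrays. Among the islet hormones, Ins2, Iapp, Gcg and Sst were further below 0 in sham animals than after STZ, and Ppy and Ghrl less so. Ins2 was at -1.09 ± 0.28 in sham and -0.12 ± 0.31 after STZ, Iapp at -1.66 ± 0.34 and -0.08 ± 0.38, and Gcg at -1.57 ± 0.41 and -0.25 ± 0.46. G6pc2 read 8.66, 9.93 and 8.72 in control sham against 7.45, 7.42 and 6.80 in low protein sham arrays, a difference of -1.88 ± 0.29, opposite in sign to that after STZ. In the control STZ arrays it read 6.81 and 6.62, under the limit for dim genes, where a still lower value could hardly be measured. The difference between the 2 diet effects was 2.28 ± 0.44 for G6pc2, 1.58 ± 0.52 for Iapp and 0.97 ± 0.42 for Ins2, each at an unadjusted p under 0.05, and none passed over all genes (adjusted p = 1.0, limma). For Sst it was 0.76 ± 0.34, also at an unadjusted p under 0.05 (limma), and it did not pass over all genes. For Gcg it was 1.32 ± 0.62, which was not at an unadjusted p under 0.05. Ppy was at -0.29 ± 0.22 in sham and -0.08 ± 0.25 after STZ, and Ghrl at -0.10 ± 0.08 and -0.09 ± 0.09. The hormone list had a median of -0.667 in sham animals, with all 8 lower.

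Of the 33 lists without islet genes, the medians of 23 had the same sign in both diet differences and those of 10 had opposite signs. The respiratory chain had a median of -0.356 in sham animals and -0.562 after STZ, ribosomal proteins -0.598 and -0.672, acinar enzymes -0.439 and -0.381, and the hybridisation controls were at -0.393 and -0.558 in the same comparisons. Opposite signs were found for DNA replication and mitosis (-0.103 in sham and 0.0622 after STZ), duct genes (0.0573 and -0.189) and IGF genes (0.0148 and -0.0775), among others, and these differences between medians were not tested. Of the genes named by the rule, 8 of 9 higher and 11 of 12 lower had the same sign in sham animals. Zfp94 (-0.13 ± 0.22) and Atp2c2 (0.03 ± 0.11) were the exceptions. The share of all genes with the same sign was not counted, so these counts have no background. At a level of 10 to 12 the median of all genes was -0.105 in sham animals and -0.165 after STZ. Atp2c2 read 10.25, 10.03 and 10.11 in control sham against 10.28, 10.11 and 10.09 in low protein sham arrays, and its diet effects differed by -0.77 ± 0.17 (adjusted p = 1.0, limma). Sdf2l1 (0.39 ± 0.35 in sham) had a difference of diet effects of -1.39 ± 0.53 (adjusted p = 1.0, limma). Over all genes, 0 (0%) passed for the difference of diet effects with limma, and 566 (3.56%) had an unadjusted p under 0.05. Across the 15897 genes, which are not independent and share the signal shift, the diet differences correlated at r = 0.478, and at 0.40 after cyclic loess.

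**Figure D5:**
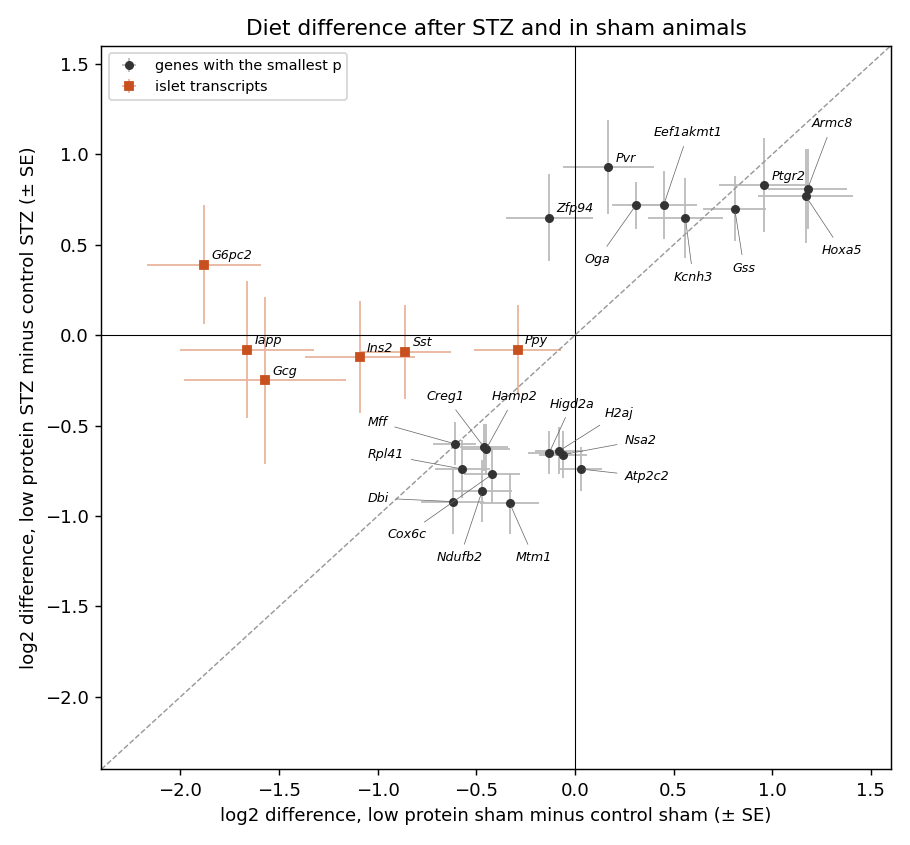
Log2 difference (low protein minus control) after STZ against that in sham animals, ± SE, for the 9 higher and 12 lower genes named by the rule (black) and 6 islet transcripts (orange); the dashed line marks equal differences. Iapp, Gcg, Ins2 and Sst lie between -1.66 and -0.86 in sham animals and between -0.25 and -0.08 after STZ, and Atp2c2 lies near 0 in sham animals and at -0.74 after STZ.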

How the data were processed

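RNA of whole pancreas was measured on 11 arrays, and the deposited values are the authors' log2 signals of probe sets. The submitters' processing notes list RMA and Partek 6.5 without saying what each did; a genome build and a statistical test are not named in the sources used here. GEO's platform annotation gives 1 gene for 34958 of the 45101 probe sets, several for 932 and none for 9211, and only those with 1 gene were used. Of a gene's probe sets the one with the highest average signal stood for it (18194 genes), and 2297 genes whose average was 6.866 or less, the 0.25 quantile over all probe sets, were not tested. The members and lists were chosen with earlier results of these data known.

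A linear model with a mean for each of the 4 groups was fitted to 15897 genes in limma 3.58.1 (R 4.3.3; lmFit, eBayes, two-sided tests, 7 residual and 3.58 prior degrees of freedom). P-values were adjusted by Benjamini-Hochberg over all genes, with a threshold of 0.05, and the fit was tested on simulated data. Python 3.11.15 made the tables. Array medians ranged from 7.92 to 7.97, and the values reported first were not rescaled. Named genes are Ins2, Iapp, Gcg, Sst and Ppy, the 12 genes per direction with the lowest p that had no overlap and at least 1.5-fold, and for each list its 4 or fewer members of lowest p. Pdia6, Hspa5 and Hsp90b1 were added for their promoters, and defining cell markers are given beside the rule.

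Alternatives were cyclic loess, only the STZ groups in the fit, trend and robust moderation, array weights, testing dim genes too, testing each probe set, a replicate block, each array left out, and, added after seeing the data, the mean of the hybridisation controls as a covariate. The samples are biological replicates, per the labels, which give no dam, litter or scan batch.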

Additional observations from a re-analysis of the deposited data

How the results depend on the processing

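With limma, the number of genes past the adjusted threshold was 0 under every alternative except 1 (Eef1akmt1) without low protein STZ 3, a range of 0 to 1 over the arrays left out, and it was 0 for the difference of diet effects under each alternative that holds all 4 groups. The number of genes at an unadjusted p under 0.05, which was 271 higher and 1238 lower, became 588 and 591 with cyclic loess, 575 and 2178 with array weights, 637 and 2068 over every probe set, and 450 and 648 with the hybridisation control covariate. Over the arrays left out it ranged from 189 to 356 higher and from 661 to 2012 lower, with the lowest count of lower genes without control STZ 1, 823 without low protein STZ 1 and the highest without low protein STZ 3. With the replicate block the counts were 233 and 997, with 0 past the adjusted threshold. For the replicate numbers shared by the STZ groups, r of deviations from the group means was -0.232 for number 1 and -0.188 for number 3. The control STZ deviations are mirror images of each other by construction, so these values are not independent. They cannot decide whether arrays with the same number are paired.

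Cyclic loess turned the sign of Ins2 (0.42), Iapp (0.38), Gcg (0.23), Sst (0.01), Ero1b (0.02), Klk1 (0.18), Ctrc (0.29), Ctrb1 (0.35), Spink1 (0.01), Cuzd1 (0.06), Zg16 (0.30), Reg1 (0.26), P4hb (0.07), H2-D1 (0.04), Hspa5 (0.17) and Hsp90b1 (0.16). Array weights turned Ins2 (0.16) and Iapp (0.09), and the hybridisation control covariate turned Ero1b (0.03), C1qb (0.03), Hspa5 (0.09) and Hsp90b1 (0.20). Leaving out 1 STZ array turned Ins2 (-0.34 to 0.04), Iapp (-0.24 to 0.08), Nkx6-1 (-0.19 to 0.00), H2-Eb1 (-0.34 to 0.02), Hspa5 (-0.66 to 0.08) and Hsp90b1 (-0.67 to 0.15). The causes were not tested. Signal over background limits G6pc2, Cdc6 and Zfp94, which lie near the limit for dim genes.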

Other observations

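Lists of DNA repair and chromatin genes, which bear on an alkylating toxin and on a diet before birth, lay close to the median of all genes (-0.0408). Of 19 genes of alkylation damage and base excision repair, 7 were higher and 12 lower in low protein STZ pancreas. Of these, 1 was lower at an unadjusted p under 0.05, against 7.79% of all genes. The list's median was -0.0376, and 0.0177 after cyclic loess. Of 23 genes of DNA methylation and chromatin enzymes, 6 were higher and 17 lower, 0 at p under 0.05 (median -0.0521, and -0.0263 after cyclic loess). Of all genes 62.3% were lower and 7.79% lower at p under 0.05. Of 15 regulators of apoptosis of the BCL2 family, 6 were higher and 9 lower (median -0.0295, and 0.0284 after cyclic loess).

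Markers of tissues that lie next to the pancreas or within it were measured in the same way. The median difference was -0.00276 over 15 genes of intestinal epithelium (0.025 after cyclic loess), -0.0392 over 9 of hepatocytes (0.00526) and -0.0236 over 4 of erythroid cells (0.00797). It was -0.0608 over 9 genes of skeletal muscle (-0.027 after cyclic loess), -0.0697 over 8 of peripheral nerve (-0.0322) and -0.094 over 14 of adipocytes (-0.0399). The adipocyte hormone gene Adipoq was at 5.76 to 5.93 and the haemoglobin gene Hba-a1 at 5.71 to 6.03 on the 5 STZ arrays, both under the limit for dim genes.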
